A study of Mus musculus with 30 samples.

Results

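The interleukin-6 (IL-6) family was followed here as 10 genes of the 14118 in the deposited count matrix. They are 4 ligands (Il6, Lif, Osm and Il11), 4 receptor chains (Il6st, Il6ra, Lifr and Osmr), the transcription factor Stat3 and its feedback inhibitor Socs3. The genes were listed by name as the cytokines, receptors and signal genes that act through gp130, and all 10 were found in the matrix by gene identifier and symbol. RNA came from 6 cell populations sorted out of each of 5 mammary adenocarcinomas of MMTV-PyMT mice (strain FVB/N-Tg(MMTVPyVT)634Mul/J), in which a mammary tumour virus promoter drives the polyoma middle T oncogene in mammary epithelium. Each tumour came from a separate mouse, had a volume of 750 mm3 and gave 1 library per population, so every group has n = 5. Age and treatment are not stated in the labels.

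Endothelial cells were sorted as CD45- CD31+. Fibroblasts of the tumour (cancer-associated fibroblasts, CAFs) carried CD90 but neither CD45 nor CD31 and were divided into CAF1 (CD34-) and CAF2 (CD34+). Tumour-associated macrophages (TAMs) were sorted as CD45+ F4/80+ and divided into CD206hi (labelled CD206+ MHCII low), CD206pos (CD206+ MHCII high) and CD206neg (CD206- MHCII low). All populations carry the same transgene, and each was isolated after a digestion of 60 min at 37 °C with collagenase I and DNase I. Endothelial cells and the 2 CAF populations are called stroma where they are treated as one.

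Cytokines of this family bind a private receptor chain and then recruit gp130, the signal chain encoded by Il6st. IL-6 and IL-11 use IL-6 receptor alpha (Il6ra) and IL-11 receptor alpha (Il11ra1), while leukaemia inhibitory factor (Lif) pairs gp130 with Lifr and oncostatin M (Osm) pairs it with Osmr, which in mice is its main receptor. The receptors activate JAK kinases, which phosphorylate STAT3, and STAT3 induces Socs3, a protein that binds gp130 and shuts the signal down. IL-6 receptor alpha can also be shed from the cell surface and act on cells that carry gp130 alone, a route called trans-signalling. In tumours, fibroblasts are a known source of IL-6 and LIF, and macrophages a known source of oncostatin M.

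Sequence before the start of the gene was taken from the RefSeq table for GRCm38.p6, in which 9 of the 10 members matched by symbol, with 11 starts, and Osm is given by name only. Of the 250 bases before each start, both strands were searched for the STAT motif TTCNNNGAA, the AP-1 motif TGANTCA and the NF-kB motif GGANTTNCC. Among 32851 mouse promoters of that length, 7.02% hold the STAT motif, 6.75% the AP-1 motif and 3.15% the NF-kB motif. Printed are Il6, which holds 2 matches, and Lif, whose RNA differed between TAM populations. Socs3 is also printed, as its RNA was highest in tumour 11 in most populations on the normalised scale given below. The capitals mark the matches, which do not overlap. The Il6 stretch is chr5:30012864-30013113 on the plus strand, the 250 bases just before the first exon, with an AP-1 match 249 to 243 bases and an NF-kB match 43 to 35 bases before the start.
Il6: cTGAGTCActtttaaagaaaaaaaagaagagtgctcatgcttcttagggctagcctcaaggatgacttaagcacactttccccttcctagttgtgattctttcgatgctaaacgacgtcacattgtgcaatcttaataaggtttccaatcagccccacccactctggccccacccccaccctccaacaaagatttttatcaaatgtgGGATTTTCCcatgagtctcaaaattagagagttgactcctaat
The Lif stretch is chr11:4257318-4257556 on the plus strand, 239 bases that end before the first exon, with an AP-1 match 228 to 222 bases before the table's start.
Lif: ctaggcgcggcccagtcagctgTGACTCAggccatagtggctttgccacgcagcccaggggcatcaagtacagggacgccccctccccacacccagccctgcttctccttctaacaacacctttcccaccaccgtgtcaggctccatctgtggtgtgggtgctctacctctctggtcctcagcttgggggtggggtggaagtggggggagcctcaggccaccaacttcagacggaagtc
The Socs3 stretch is chr11:117969452-117969616 on the minus strand, the 165 bases of the window that no annotated exon overlaps, with a STAT match 154 to 146 bases before the table's start. It lies inside an intron of a longer annotated Socs3 transcript.
Socs3: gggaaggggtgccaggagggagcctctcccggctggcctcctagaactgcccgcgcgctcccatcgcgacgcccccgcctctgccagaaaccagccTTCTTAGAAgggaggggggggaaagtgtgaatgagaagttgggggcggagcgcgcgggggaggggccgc
A second Il11 start holds an AP-1 match 98 to 92 bases before it. No match was found before the starts of Il6st, Il6ra, Lifr, Osmr and Stat3 or the other Il11 start, which says only that these letters are not in those windows. A match describes the letters and does not show binding.

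Libraries held 6292411 to 11957076 counts and detected 11514 to 13756 genes. Levels are given as normalised CPM, counts divided by the library total after scaling by edgeR's TMM factors, on the usual CPM scale (0.5474 to 1.671), always in the order of tumours 5, 6, 8, 10 and 11. A count of 3 bounds (at 95%) what a gene listed at 0 could hold. It was 0.168 to 0.726 normalised CPM, or 0.251 to 0.477 CPM of the library total, and such limits cover counting error only. Scaling by library totals alone moves the median log2 fold change of all genes by 0.723 for endothelial cells against TAMs, 0.445 against CAF1 and 0.391 against CAF2, by 0.305 for CAFs against TAMs, and by 0.171 for CD206pos and 0.145 for CD206hi against CD206neg. All fold changes here are relative to TMM scaling, and a direction or call that library totals alter is named with its result. The data columns of the CD206neg libraries of tumours 6 and 8 are named for high MHCII, whereas their labels, which were followed, give low. H2-Aa, an MHCII chain, was at 525, 9016, 1704, 5481 and 8283 normalised CPM in CD206pos and at 17.8, 14383, 2897, 489.7 and 551 in CD206neg, so the CD206neg library of tumour 6 was above every CD206pos library and that of tumour 8 above its own tumour's CD206pos library. Calls and list counts named in comparisons with CD206neg or with TAMs were therefore run again without these 2 libraries, and values are given where a call or a count changed.

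The marker sum of each sorted lineage was higher in its own libraries than in all others. The sum of 5 endothelial markers was 3048, 2830, 993, 2611 and 2922 normalised CPM in endothelial libraries and 24.3 or less elsewhere. The summed level of 6 macrophage markers was 3.94 to 22.6 normalised CPM in stromal libraries and 7580 to 27641 in TAM libraries. The sum of 6 fibroblast markers averaged 405 in endothelial cells, 93576 in CAF1 and 71334 in CAF2, and did not exceed 58.3 in a TAM library. Other cell types were also detected. The sum of 6 pericyte markers averaged 404 in endothelial cells (range 81.2 to 1022), 1013 in CAF1 and 86.7 in CAF2. In the endothelial library of tumour 8 the pericyte sum (1022) was above the endothelial sum (993), and the fibroblast sum was 856. The sum of 8 luminal epithelial markers averaged 1013 in endothelial cells, 910.1 in CAF1, 119 in CAF2, 149 in CD206hi, 139 in CD206pos and 337 in CD206neg. The sum of 4 myoepithelial markers averaged 287 in endothelial cells, 812 in CAF1 and 3.98 in CAF2. The sum of the 4 neutrophil markers in the matrix averaged 9.16 or less in each stromal population, 43.8 in CD206hi, 48.3 in CD206pos and 57.8 in CD206neg. None of these markers was at 0 in every library of a group, except Mmp8, a neutrophil marker, in endothelial cells. Immediate early genes, which tissue digestion can induce, summed over 10 genes to 11362 in endothelial cells, 35030.0 in CAF1, 30950.2 in CAF2, 26172 in CD206hi, 19156 in CD206pos and 12828 in CD206neg.

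Il6, on chromosome 5 (30013114 to 30019975, plus strand, GRCm38), was most abundant in both fibroblast populations and was also high in endothelial cells. Its normalised CPM was 544, 340.3, 291, 229.8 and 464 in endothelial cells. It was 843, 1582, 708, 1109 and 1521 in CAF1 and 936, 773, 794, 1195 and 1376 in CAF2. The CAF1 and CAF2 ranges overlapped, and the lowest CAF library of the 10 was above the highest endothelial library. As CPM of the library total, the endothelial library of tumour 5 (779) was above the CAF2 library of tumour 6 (745), so this separation depends on the scaling. In bulk samples, fewer cells of a type and less RNA per cell cannot be told apart. In TAMs the level was 21.6, 51.6, 11.7, 8.26 and 24.7 in CD206hi, 71.8, 113, 26.8, 59.4 and 85.01 in CD206pos and 22.5, 22.7, 32.02, 15.3 and 6.20 in CD206neg. No TAM library reached the lowest endothelial library.

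Tests used edgeR (quasi-likelihood F test), with p adjusted by Benjamini-Hochberg over all genes tested, and values after ± are SE. Il6 was lower in endothelial cells than in CAF1 (edgeR log2 fold change -1.62 ± 0.42; adjusted p = 0.00285) and CAF2 (-1.44 ± 0.42; adjusted p = 0.00556), in 5 of 5 tumours each time. It was higher in CAFs than in TAMs (5.07 ± 0.29; adjusted p = 1.2e-15) and in endothelial cells than in TAMs (3.54 ± 0.31; adjusted p = 2.51e-11). Among TAMs, Il6 was higher in CD206pos than in CD206neg (1.83 ± 0.47; adjusted p = 0.0142), in 4 of 5 tumours and with overlapping ranges. That call was lost without tumour 5 (adjusted p = 0.0562), tumour 10 (0.0514) or tumour 11 (0.0802). The edgeR log2 fold change of Il6 in CD206hi against CD206pos was -1.58 ± 0.47, negative in 5 of 5 tumours, with an adjusted p = 0.34. Per 100 counts of the 6 fibroblast markers there were 80.8 Il6 counts in endothelial cells, 1.46 in CAF1, 1.49 in CAF2, 86.6 in CD206hi, 350.3 in CD206pos and 115 in CD206neg. The fibroblast sum itself was far lower outside the CAF gates, and the part of fibroblasts in the Il6 levels there was not tested. Per 100 pericyte marker counts, Il6 was at 78.4 counts in endothelial cells (28.4 to 419 by library), 96.5 in CAF1 and 1184 in CAF2. It was at 690 in CD206hi, 1650 in CD206pos and 425 in CD206neg, and the part of pericytes in the endothelial level was not tested.

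Osm, which encodes oncostatin M (chromosome 11, 4236785 to 4241026, plus strand), had the opposite pattern, with almost none in stroma and high levels in every macrophage library. Its normalised CPM was 0.0773, 0.491, 0, 0.0791 and 0.169 in endothelial cells, 0.543, 3.48, 0.408, 0.220 and 0 in CAF1 and 0.0805, 0.121, 0.168, 0.0713 and 0.370 in CAF2. Those 15 stromal libraries held 64 Osm counts in all, 31 of them in the CAF1 library of tumour 6. In TAMs the level was 1293, 1409, 1316, 1373 and 3118 in CD206hi, 2205, 1546, 790.2, 1173 and 2261 in CD206pos and 389.9, 838, 609, 762 and 1012 in CD206neg. On this scale the CD206hi library of tumour 11 was highest, every CD206hi library exceeded every CD206neg library, and the ranges of CD206pos and CD206neg overlapped. As CPM of the library total, the CD206hi library of tumour 11 was at 1815, and the CD206pos library of tumour 5 was highest at 2240.

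Osm was lower in CAFs than in TAMs (edgeR log2 fold change -11.60 ± 0.54; adjusted p = 1.34e-17) and in endothelial cells than in TAMs (-12.97 ± 0.81; adjusted p = 1.96e-14). The size of both fold changes depends on the prior count of the fit, because stromal libraries held so few counts. Osm was also higher in CD206hi than in CD206neg (1.23 ± 0.34; adjusted p = 0.0276) and in CD206pos than in CD206neg (1.13 ± 0.34; adjusted p = 0.0333), in 5 of 5 tumours each time. Both calls were lost without the CD206neg libraries of tumours 6 and 8 (adjusted p = 0.14 and 0.126). Leaving out 1 library or 1 tumour ended the first call in 9 of 15 runs, with adjusted p up to 0.112, reached without the CD206hi library of tumour 11; each of the CD206neg libraries of tumours 5, 6, 8 and 10, and each of tumours 5, 6, 10 and 11, did so too. The second call ended in 11 of 15 runs, up to 0.153 without tumour 5: those without the CD206neg library of tumour 5, 6, 8 or 10, the CD206pos library of tumour 5, 6 or 11, or tumour 5, 6, 10 or 11. The call of lower Osm in endothelial cells than in CAF1 (-2.60 ± 0.79; edgeR adjusted p = 0.0104) rested on 9 counts in endothelial cells and 46 in CAF1, and was lost without the CAF1 library of tumour 6 (log2 fold change -1.18; adjusted p = 0.241) or without tumour 6 (0.0856). Per 100 counts of the 6 macrophage markers CAF1 held 6.70 Osm counts.

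**Figure D1:**
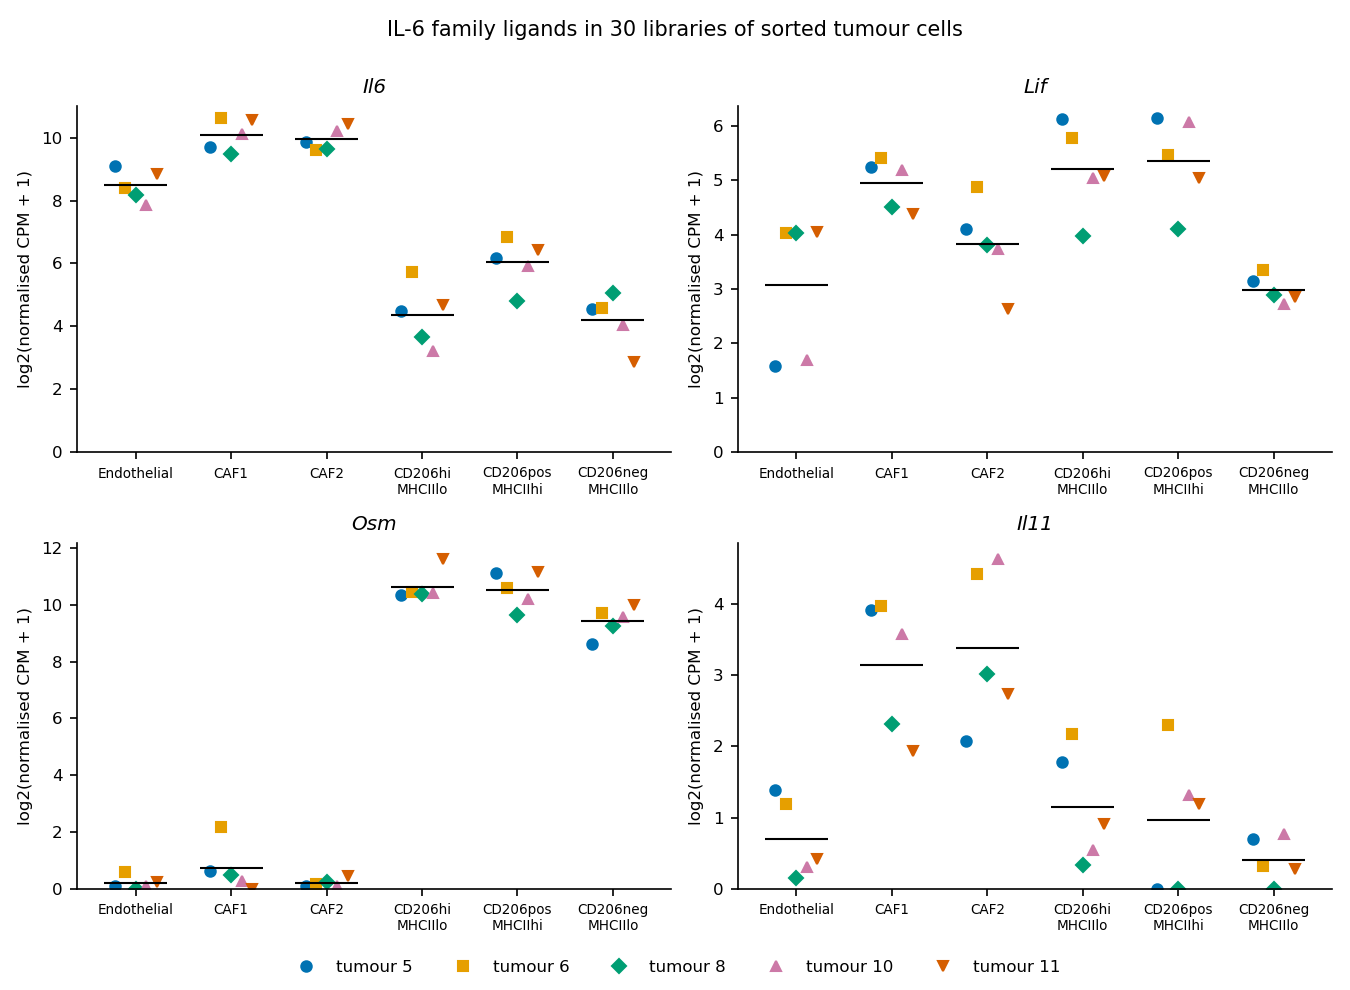
Levels of Il6, Lif, Osm and Il11 in each library, as log2 of normalised CPM plus 1 (vertical axis), by sorted population (horizontal axis). Each point is 1 tumour and each black line the mean of 5. Il6 points of both CAF populations sit above those of endothelial cells and far above TAMs, and Osm points of all 15 TAM libraries, at 390 to 3118 normalised CPM, sit above all stromal points.

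Lif (chromosome 11, 4257568 to 4272514, plus strand) lies 16.5 kb from Osm with no protein-coding gene between them, and was detected in all 30 libraries. Lif was at 2.01, 15.3, 15.2, 2.21 and 15.6 normalised CPM in endothelial cells, 36.9, 41.6, 21.8, 35.6 and 19.8 in CAF1 and 16.2, 28.5, 13.1, 12.3 and 5.18 in CAF2. The endothelial libraries of tumours 5 and 10 were the lowest of all 30, and the CAF1 and CAF2 ranges overlapped. In TAMs Lif was at 69.3, 53.97, 14.7, 31.8 and 33.03 in CD206hi, 69.8, 43.3, 16.2, 66.03 and 32.04 in CD206pos and 7.83, 9.19, 6.40, 5.58 and 6.20 in CD206neg. All 10 libraries of the 2 CD206+ populations were above all 5 CD206neg libraries.

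Lif was higher in CD206hi (edgeR log2 fold change 2.55 ± 0.41; adjusted p = 0.00051) and CD206pos (2.70 ± 0.41; adjusted p = 0.000276) than in CD206neg. The sum of immediate early genes ran from 11952 to 60478 normalised CPM in CD206hi, from 11155 to 39472 in CD206pos and from 7042 to 18886 in CD206neg, and its part in these results was not tested. Lif was lower in endothelial cells than in CAF1 (-1.63 ± 0.50; edgeR adjusted p = 0.011), a call lost without tumour 10 (0.0799) and with library totals (-1.22; 0.0778). It was lower in endothelial cells than in TAMs (-1.22 ± 0.43; edgeR adjusted p = 0.0155), in 4 of 5 tumours, a call lost without tumour 5 (0.127), tumour 10 (0.0863) or the endothelial library of either (0.0536 and 0.0548), and with library totals (-0.52; 0.301). TAM is here the mean of its groups, and the CD206neg mean (7.04 normalised CPM) was below the endothelial mean (10.1), with overlapping ranges. The log2 fold change of Lif in CAF1 against CAF2 was 1.07 ± 0.36, with an edgeR adjusted p = 0.0555 that became 0.00664 with tumour as a block, and it was positive in 5 of 5 tumours. It was also called with DESeq2 (0.0224), limma (0.0361) and the filter of 50 counts (0.0488), and without the CAF1 library of tumour 8 (0.0481) or 11 (0.0439), the CAF2 library of tumour 6 (0.00857) or tumour 6 (0.0253).

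Il11, which encodes a fibroblast-made cytokine studied in bone and fibrosis (chromosome 7, 4772373 to 4782907, minus strand), was a fibroblast transcript at low level. Its normalised CPM averaged 0.718 ± 0.685 in endothelial cells, 9.33 ± 5.59 in CAF1 and 12.1 ± 9.39 in CAF2 (SD, n = 5 each). It averaged 1.51 ± 1.42 in CD206hi, 1.34 ± 1.6002 in CD206pos and 0.354 ± 0.295 in CD206neg. The CAF libraries ran from 2.83 to 23.8 normalised CPM and overlapped TAM libraries, whose highest was 3.91. Il11 was higher in CAFs than in TAMs (edgeR log2 fold change 3.57 ± 0.56; adjusted p = 1.79e-06), and lower in endothelial cells than in CAF1 (-3.72 ± 0.90; adjusted p = 0.00164) and CAF2 (-4.08 ± 0.91; adjusted p = 0.000517). It had too few counts to be tested between TAM populations.

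Osmr, the receptor chain for oncostatin M (chromosome 15, 6813568 to 6874968, minus strand), was the reverse of its ligand across lineages. Its normalised CPM was 50.02, 27.9, 35.2, 21.7 and 33.02 in endothelial cells, 93.7, 85.1, 68.4, 55.6 and 90.1 in CAF1 and 66.1, 74.7, 43.9, 57.6 and 56.6 in CAF2. Every stromal library, at 21.7 to 93.7, was above every TAM library, at 3.48 or less. TAM libraries were at 0, 2.35, 0.772, 0 and 1.53 in CD206hi, 0, 3.48, 0.192, 0.125 and 1.45 in CD206pos and 2.85, 2.90, 0.213, 1.81 and 1.03 in CD206neg. Osmr was higher in CAFs than in TAMs (edgeR log2 fold change 6.02 ± 0.41; adjusted p = 6.95e-14) and in endothelial cells than in TAMs (4.99 ± 0.44; adjusted p = 3.68e-11), with sizes that depend on the prior count because TAM libraries held few counts. The log2 fold change of Osmr in endothelial cells against CAF1 was -1.23 ± 0.51, with an edgeR adjusted p = 0.0635 that became 0.0318 with tumour as a block. Per 100 pericyte marker counts Osmr was at 7.24 counts in endothelial cells, 7.15 in CAF1 and 67.7 in CAF2, and the part of pericytes in the endothelial level was not tested.

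Lifr, the receptor chain for LIF (chromosome 15, 7090610 to 7197489, plus strand), lies 215.6 kb from Osmr, again with no protein-coding gene between them, and had a different pattern. Its normalised CPM was 20.4, 11.8, 15.5, 15.1 and 16.4 in endothelial cells, 22.95, 21.6, 24.8, 24.2 and 32.1 in CAF1 and 13.1, 10.4, 14.5, 15.98 and 13.5 in CAF2, and each CAF1 library was above every CAF2 library. In TAMs Lifr was at 111, 77.5, 45.04, 63.9 and 129 in CD206hi, 147, 66.97, 66.1, 68.03 and 108 in CD206pos and 16.1, 27.6, 25.6, 20.2 and 25.8 in CD206neg. All 10 libraries of the CD206+ populations were above all CD206neg and all stromal libraries. Lifr was higher in CD206hi (1.89 ± 0.29; edgeR adjusted p = 0.000366) and CD206pos (1.98 ± 0.29; adjusted p = 0.000204) than in CD206neg, and higher in CAF1 than in CAF2 (0.91 ± 0.16; adjusted p = 0.00167). It was lower in CAFs than in TAMs (-1.61 ± 0.17; edgeR adjusted p = 7.89e-10) and in endothelial cells than in TAMs (-1.83 ± 0.22; adjusted p = 3.14e-08). TAM is here the mean of its groups. CD206neg averaged 23.1 normalised CPM, with CAF1 at 25.1, endothelial cells at 15.8 and CAF2 at 13.5, and its range overlapped those of CAF1 and endothelial cells. The call of lower Lifr in endothelial cells than in CAF1 (-0.66 ± 0.25; edgeR adjusted p = 0.037) was lost in 10 of 15 runs that left out 1 library or tumour, with adjusted p up to 0.129 without tumour 6, and with library totals (-0.17; 0.665). Those runs left out the CAF1 library of tumour 8, 10 or 11, the endothelial library of tumour 6, 10 or 11, or tumour 6, 8, 10 or 11.

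Il6st, the gp130 chain that all these receptors share (chromosome 13, 112464070 to 112506860, plus strand), was higher in stroma than in TAMs and was detected in every library. Its normalised CPM was 146, 89.2, 58.03, 76.9 and 113 in endothelial cells, 99.3, 106, 117, 107 and 114 in CAF1 and 201, 93.6, 115, 128 and 134 in CAF2. It was 17.9, 19.4, 11.97, 13.5 and 22.7 in CD206hi, 30.2, 21.5, 13.6, 11.9 and 27.7 in CD206pos and 13.3, 10.9, 7.68, 5.30 and 9.51 in CD206neg. The lowest stromal library, at 58.0, was above the highest TAM library, at 30.2, and the 3 stromal ranges overlapped. Il6st was higher in CAFs than in TAMs (edgeR log2 fold change 3.01 ± 0.18; adjusted p = 1.76e-15) and in endothelial cells than in TAMs (2.69 ± 0.20; adjusted p = 8.35e-13). Among TAMs it was higher in CD206pos than in CD206neg (1.16 ± 0.29; edgeR adjusted p = 0.0117), a call lost without the CD206neg libraries of tumours 6 and 8 (0.0664) or without tumour 11 (0.0791). In CD206hi against CD206neg the log2 fold change was 0.87 ± 0.29, with an edgeR adjusted p = 0.0659 that became 0.00314 with tumour as a block, positive in 5 of 5 tumours. For endothelial cells against CAF2 it was -0.48 ± 0.26, with an edgeR adjusted p = 0.142 that became 0.0264 with the block.

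Il6ra, the ligand-binding chain for IL-6 (chromosome 3, 89869324 to 89913196, minus strand), was mainly a macrophage transcript. Its normalised CPM averaged 0.908 ± 0.953 in endothelial cells, 2.23 ± 0.573 in CAF1 and 6.56 ± 2.86 in CAF2. It averaged 29.01 ± 9.32 in CD206hi, 28.3 ± 7.12 in CD206pos and 23.8 ± 12.5 in CD206neg (SD, n = 5 each). Every stromal library, at 9.35 or less, was below every TAM library, at 11.4 or more. As CPM of the library total, the CAF2 library of tumour 11 (9.67) was above the CD206neg library of tumour 10 (9.12), so this separation depends on the scaling. Il6ra was lower in CAFs than in TAMs (edgeR log2 fold change -2.80 ± 0.31; adjusted p = 3.31e-09), in endothelial cells than in TAMs (-4.80 ± 0.48; adjusted p = 6.99e-10) and in endothelial cells than in CAF2 (-2.77 ± 0.49; adjusted p = 3.11e-05), the last in 4 of 5 tumours. It was also lower in CAF1 than in CAF2 (-1.52 ± 0.39; edgeR adjusted p = 0.0156), in 4 of 5 tumours, a call lost with tumour as a block (0.0641), without tumour 6 (0.086) and without tumour 11 (0.0941). In endothelial cells against CAF1 its log2 fold change was -1.25 ± 0.51 (edgeR adjusted p = 0.0554), which was called with DESeq2 (0.0245), RLE factors (0.0468) and limma (0.00434), and without the endothelial library of tumour 8 (0.0018) or tumour 8 (0.00341). Il6ra overlaps an antisense gene, Gm42809, and reads of the 2 cannot be told apart because the strand setting of the counting is not given in the sources used here.

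**Figure D2:**
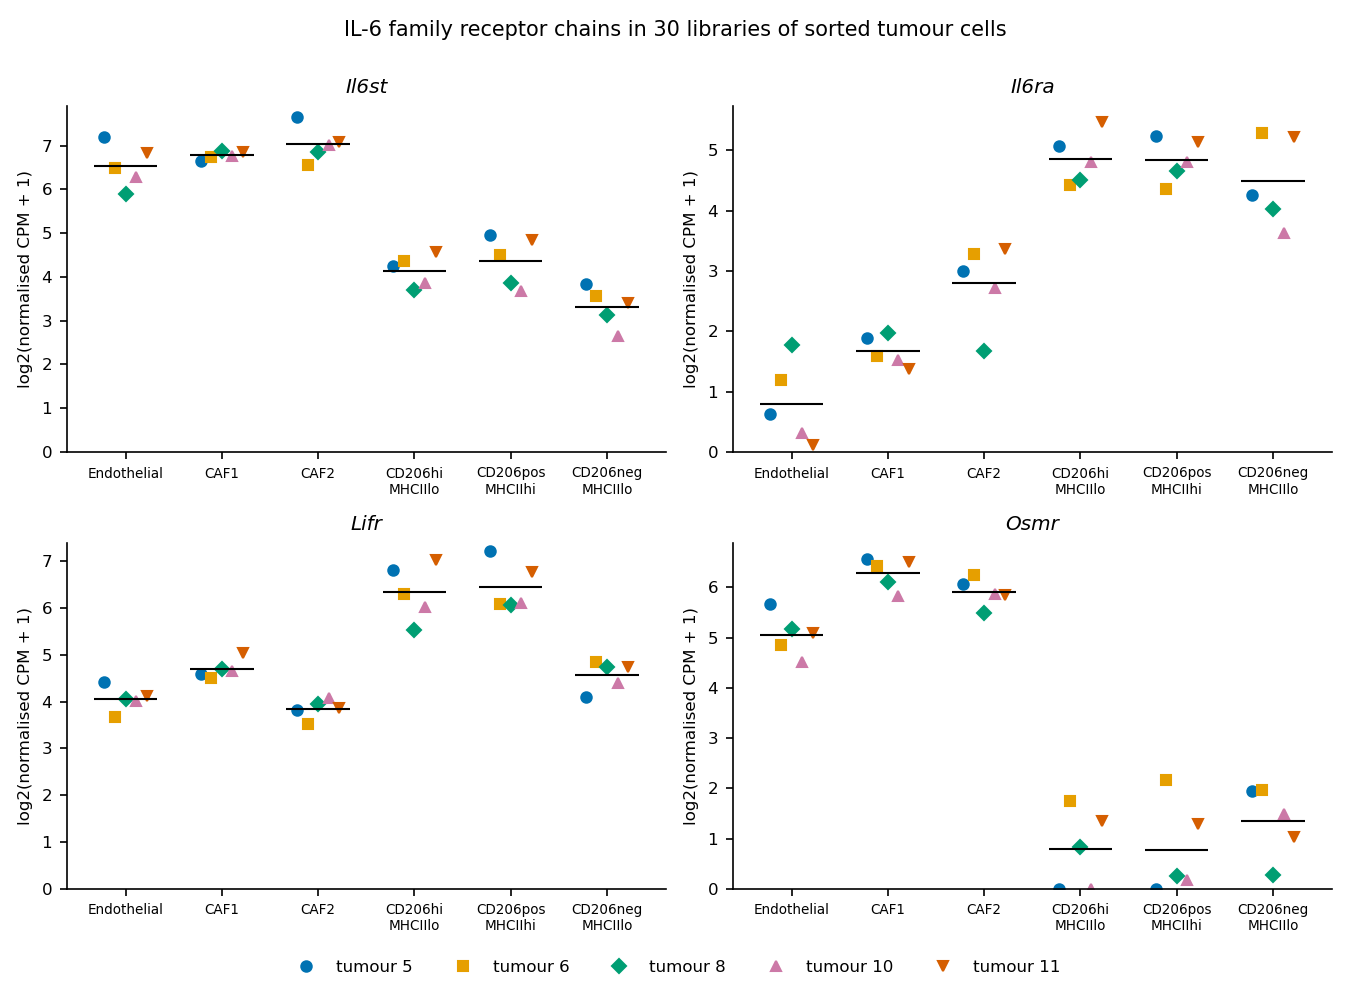
Levels of Il6st, Il6ra, Lifr and Osmr in each library, as log2 of normalised CPM plus 1 (vertical axis), by sorted population (horizontal axis). Each point is 1 tumour and each black line the mean of 5. Osmr and Il6st are higher in the 15 stromal libraries than in the 15 TAM libraries, Il6ra is lower there, and Lifr is highest in CD206hi and CD206pos.

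To compare genes with each other, levels were divided by the exon length of each gene, so these values are normalised CPM per kb. Among receptors, the order of mean levels per kb in endothelial cells was Il6st at 8.70, Osmr at 2.77, Lifr at 1.47 and Il6ra at 0.105. CAF1 had the same order, with Il6st at 9.78, Osmr at 6.49, Lifr at 2.33 and Il6ra at 0.258, and so had CAF2, with 12.1, 4.93, 1.25 and 0.760. In CD206hi the order per kb was Lifr at 7.91, Il6ra at 3.36, Il6st at 1.54 and Osmr at 0.0769, and in CD206pos it was Lifr at 8.48, Il6ra at 3.28, Il6st at 1.89 and Osmr at 0.0866. In CD206neg Il6ra led at 2.76 per kb, followed by Lifr at 2.14, Il6st at 0.842 and Osmr at 0.145. Osmr exceeded Lifr per kb in 15 of 15 stromal libraries and in 0 of 15 TAM libraries, and the same held for Il6st over Il6ra. The shared chain was thus the most abundant receptor transcript of the 4 per kb in each stromal population, and below Lifr and Il6ra in each TAM population.

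**Figure D3:**
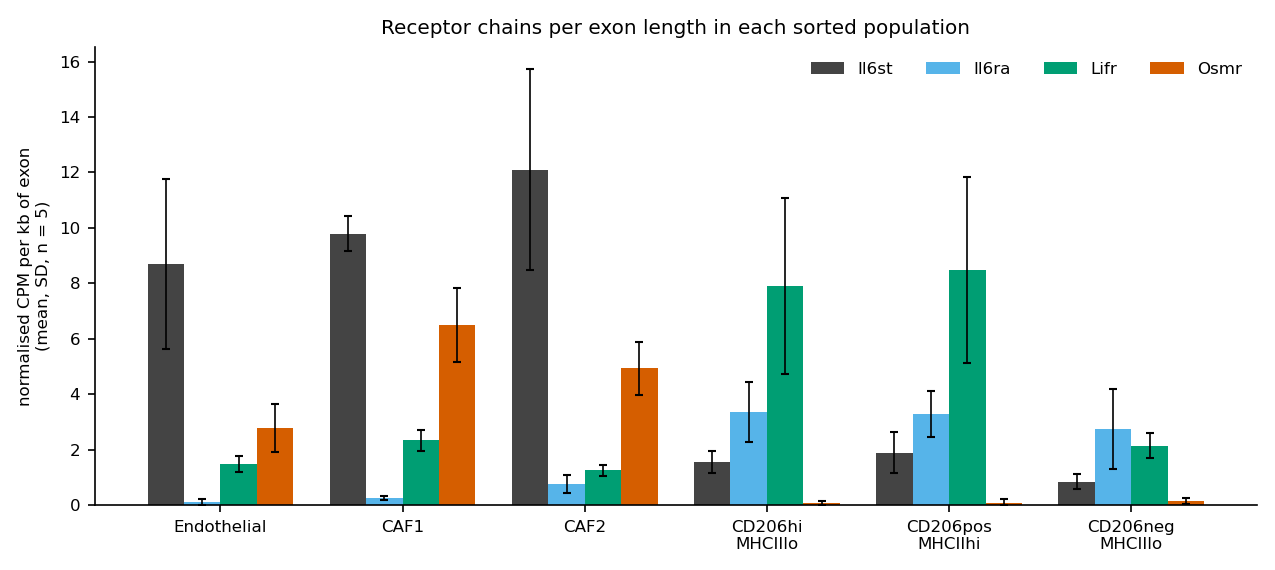
Mean level of the 4 receptor chains per kb of exon (vertical axis, normalised CPM per kb) in each sorted population (horizontal axis). Bars start at 0 and error bars are the SD over 5 tumours, cut at 0 below. Il6st is the tallest bar in endothelial cells, CAF1 and CAF2, Lifr in CD206hi and CD206pos, and Il6ra in CD206neg.

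Per kb, Il6 was the most abundant ligand transcript in each stromal population, at 154 in endothelial cells, 475 in CAF1 and 418 in CAF2. The next ligand per kb was Lif in endothelial cells (2.32) and CAF1 (7.16) and Il11 in CAF2 (5.80). Osm was the most abundant ligand transcript in each TAM population, at 749 per kb in CD206hi, 702 in CD206pos and 318 in CD206neg. Il6 came second in TAMs, at 9.71 in CD206hi, 29.4 in CD206pos and 8.14 in CD206neg, close to Lif in CD206hi (9.32).

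Stat3 (chromosome 11, 100886806 to 100939594, minus strand) had the smallest ratio of highest to lowest library of the 10 members, with a range from 154.6 to 493 normalised CPM. It averaged 224 ± 49.7 in endothelial cells, 251 ± 27.3 in CAF1 and 205 ± 29.3 in CAF2. In TAMs it averaged 275 ± 113 in CD206hi, 318 ± 125 in CD206pos and 219.6 ± 55.7 in CD206neg. The ranges of neighbouring groups overlapped throughout, and Stat3 passed the edgeR test in 0 of 8 comparisons. The largest log2 fold change was 0.53 ± 0.28, in CD206pos against CD206neg (adjusted p = 0.228). For endothelial cells against TAMs it was -0.25 ± 0.21 (adjusted p = 0.294), and with library totals 0.52, called as higher (adjusted p = 0.0166), so its direction there depends on the scaling. Stat3 overlaps Stat5a on the other strand, and reads of the overlap cannot be told apart.

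Socs3 (chromosome 11, 117966079 to 117970336, minus strand) was abundant in all populations, with group means from 650 to 1519 normalised CPM and single libraries from 321 to 3820. Its normalised CPM was 1003, 735, 321, 509 and 684 in endothelial cells, 675, 1208, 999, 1048 and 3388 in CAF1 and 1081, 1193, 1286, 1222 and 2007 in CAF2. It was 1284, 564, 978, 951 and 3820.2 in CD206hi, 1642, 537, 738, 700.4 and 2041 in CD206pos and 685, 1985, 627, 852 and 1308 in CD206neg. Tumour 11 had the highest value in 4 of the 6 populations (CAF1, CAF2, CD206hi and CD206pos), and the endothelial value of tumour 5 and the CD206neg value of tumour 6 led their populations. The sum of the 10 immediate early genes in tumour order was 16631, 27483, 29532, 36655 and 64848 in CAF1, 24288, 27569, 29947, 30399 and 42548 in CAF2, 14645, 11952, 25731, 18055 and 60478 in CD206hi and 18569, 11155, 14321, 12262 and 39472 in CD206pos. Tumour 11 had the highest such sum in 5 of 6 populations, and the same tumour led in both Socs3 and this sum in 5 of 6. Both values of a library are scaled by the same TMM factor, and a low factor raises both. For tumour 11 it was 0.691 in CAF1, 1.035 in CAF2, 0.582 in CD206hi and 0.6593 in CD206pos. As CPM of the library total, CD206pos Socs3 was highest in tumour 5 (1668), with tumour 11 at 1346. The part of the immediate early genes in the Socs3 levels was not tested.

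Socs3 passed the edgeR test in 0 of 8 comparisons. The log2 fold change was -1.17 ± 0.48 in endothelial cells against CAF1 (adjusted p = 0.0612), -1.06 ± 0.48 against CAF2 (0.0729) and -0.92 ± 0.41 against TAMs (0.0541). With tumour as a block these edgeR adjusted p-values became 0.0329, 0.0183 and 0.0256, all called as lower. DESeq2 also called all 3 (0.0263, 0.0441 and 0.0307), RLE factors the one against CAF1 (0.0485), and limma (0.0388) and a fit of endothelial and CAF2 libraries alone (0.0142) the one against CAF2. In CAFs against TAMs the log2 fold change was 0.19 ± 0.31 (edgeR adjusted p = 0.593), and with library totals 0.53 (0.0415). Endothelial cells also had the lowest mean of the immediate early sum, and its part in these Socs3 values was not tested.

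**Figure D4:**
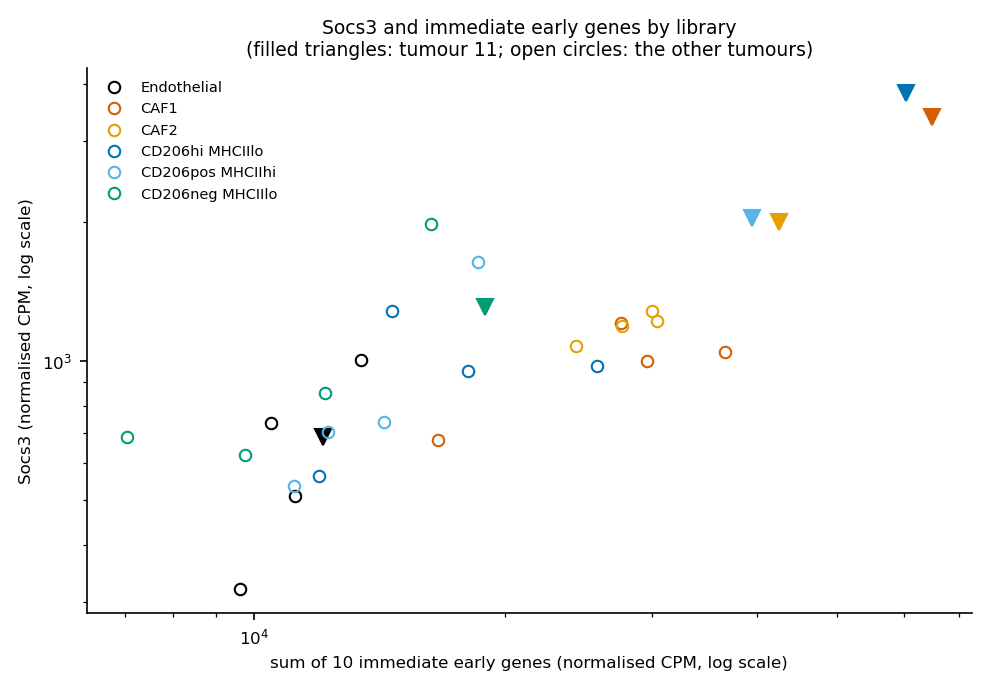
Socs3 level of each library (vertical axis, normalised CPM, log scale) against the sum of 10 immediate early genes in the same library (horizontal axis, normalised CPM, log scale), with 1 point per library coloured by population, filled triangles for tumour 11 and open circles for the other tumours. Tumour 11 has the highest Socs3 of its population in CAF1 (3388), CAF2 (2007), CD206hi (3820) and CD206pos (2041).

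In CAF1 against CAF2, 2 of the 9 members tested passed the edgeR test, Lifr as higher and Il6ra as lower, where 19.5% of all 12149 genes tested did (10.9% as higher and 8.59% as lower). With the block Lif and Lifr were called, both as higher, where 20.1% of genes were called. Epithelial and pericyte marker sums also differed between these gates, as given above, and their part in the Lifr, Il6ra and Lif values was not tested. In CD206hi against CD206pos, 0 of 9 members passed the edgeR test and 1, Il6, had an unadjusted p under 0.05 (0.00331); DESeq2 also called 0, and 0.190% of 11052 genes were called. In CD206hi against CD206neg, 3 of 9 were called by edgeR, all higher in CD206hi (Lif, Osm and Lifr), where 10.04% of genes were called and 6.14% were called higher, and with the block Il6st made 4, where 16.2% of genes were called. In CD206pos against CD206neg, 5 of 9 were called, all higher in CD206pos (Il6, Lif, Osm, Il6st and Lifr), where 14.7% of genes were called and 8.85% were called higher. Without the CD206neg libraries of tumours 6 and 8 the last count was 3, where 8.11% of genes were called. These 3 TAM comparisons share libraries.

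Between lineages the share of members called was above that of all genes in some comparisons and below it in others. In endothelial cells against CAF1, 5 of 10 members passed the edgeR test, all lower in endothelial cells (Il6, Lif, Osm, Il11 and Lifr), where 34.7% of 13610 genes did and 18.8% did as lower. With library totals 3 did, and the share of all genes under that scaling is not reported here. The block gave 7, Osmr and Socs3 added, where 40.5% of genes were called. In endothelial cells against CAF2, 3 of 10 were called, all lower in endothelial cells (Il6, Il11 and Il6ra), where 46.0% of genes were called and 22.3% were called lower, and with the block Il6st and Socs3 made 5, where 51.8% were called. In CAFs against TAMs, 7 of 10 were called, 4 higher (Il6, Il11, Il6st and Osmr) and 3 lower (Osm, Il6ra and Lifr), where 68.1% of genes were called, 37.3% higher and 30.8% lower. In endothelial cells against TAMs, 7 of 10 were called, 3 higher (Il6, Il6st and Osmr) and 4 lower (Lif, Osm, Il6ra and Lifr), where 61.3% of genes were called, 36.5% higher and 24.7% lower, and with the block Socs3 made 8, where 65.2% were called. These comparisons share the endothelial, CAF and TAM libraries.

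**Figure D5:**
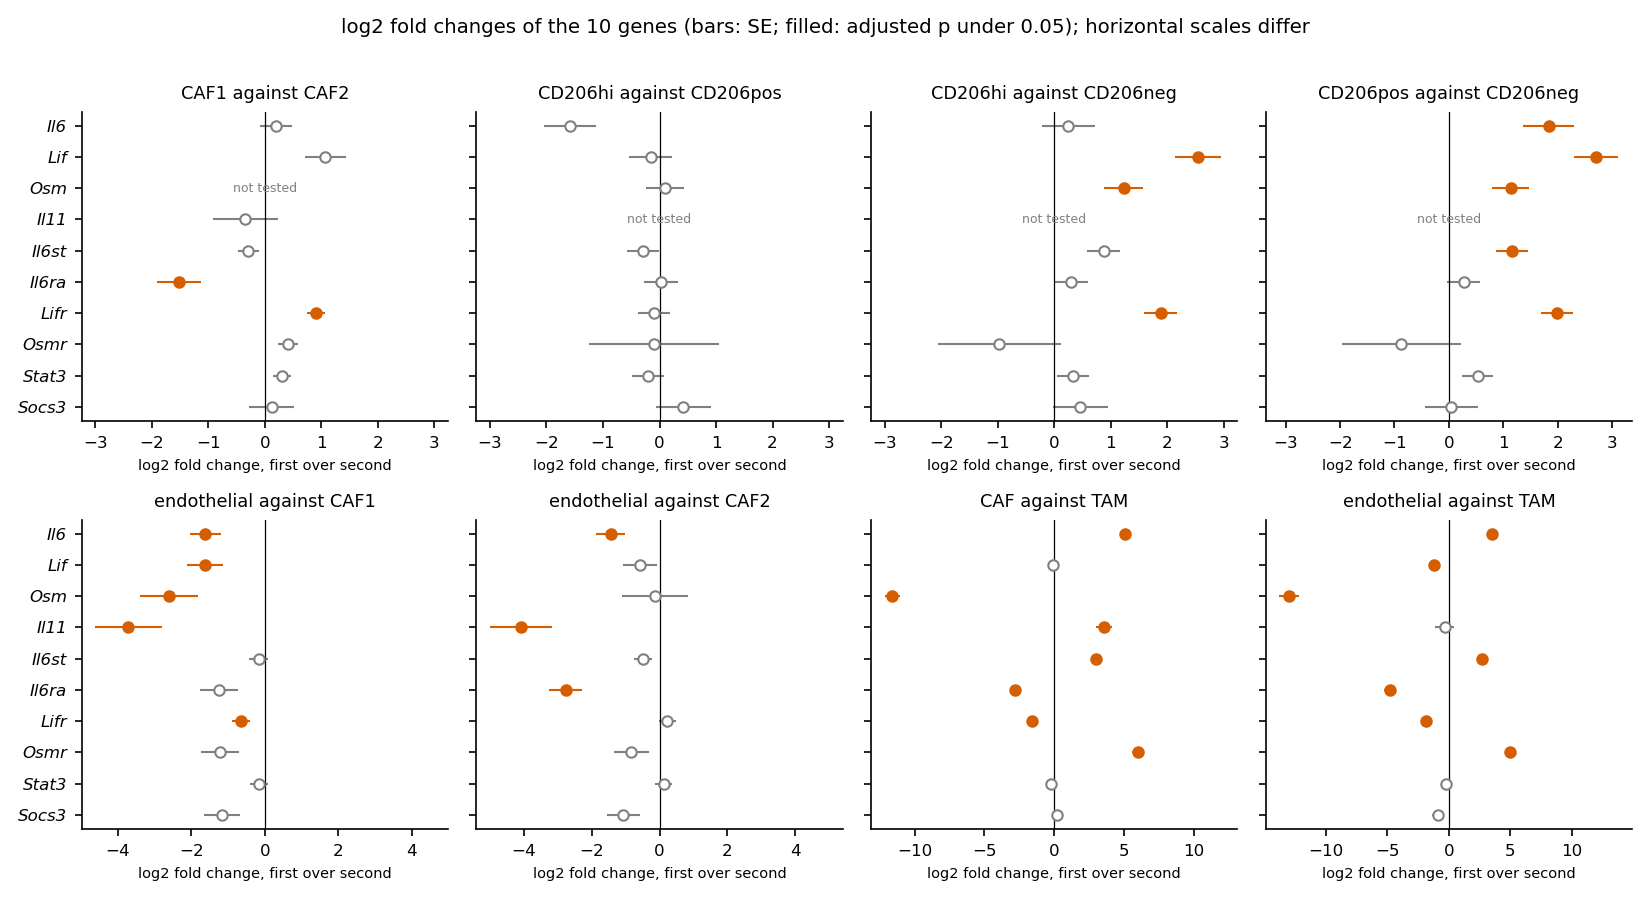
Log2 fold changes of the 10 members (rows) in the 8 comparisons (panels, first-named population over the second on the horizontal axis, whose scale differs between panels), with bars for the SE and filled points for edgeR adjusted p under 0.05. Osm and Osmr lie on opposite sides of 0 in both comparisons of stroma with TAMs, and Stat3 and Socs3 are open points in all 8 panels.

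Of 46 other genes of the pathway, listed by role, 44 are in the matrix, and Cntf and Il31ra were not analysed here. Among the 8 other ligands and receptors of the family in the matrix, 8 passed the edgeR test in CAFs against TAMs, 5 higher and 3 lower, where 68.1% of all genes did, 37.3% as higher and 30.8% as lower, with a median log2 fold change of 2.42 beside 0.10 over all genes. Without the CD206neg libraries of tumours 6 and 8 the counts were 5 higher and 2 lower, where 66.2% of all genes were called. Il11ra1, the receptor chain for IL-11, averaged 29.3 ± 7.99 normalised CPM in endothelial cells, 516 ± 225 in CAF1, 605 ± 98.4 in CAF2, 30.3 ± 6.18 in CD206hi, 33.2 ± 8.34 in CD206pos and 26.4 ± 5.39 in CD206neg. It was higher in CAFs than in TAMs (4.23 ± 0.17; edgeR adjusted p = 6.23e-19) and lower in endothelial cells than in CAF1 (-4.14 ± 0.29; adjusted p = 3.48e-12). Mice carry a near-identical copy, Il11ra2, so its counts are uncertain if the counting split reads between them. Ebi3, a subunit of IL-27, averaged 0.0732 or less in each stromal group and 13.3 ± 3.49 in CD206hi, 14.999 ± 4.37 in CD206pos and 17.02 ± 5.52 in CD206neg.

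Of the 6 JAK kinases and other STATs, 3 were called in CAFs against TAMs, where 68.1% of all genes were, among them Jak1 as higher (0.38 ± 0.17; edgeR adjusted p = 0.0456) and Tyk2 as lower (-1.32 ± 0.16; adjusted p = 2.63e-08). The Jak1 call was lost without the CD206neg libraries of tumours 6 and 8 (adjusted p = 0.178). Jak2 was lower in CD206hi than in CD206neg (-1.12 ± 0.20; edgeR adjusted p = 0.00106). Of the 10 inhibitors and adaptors, 5 were higher and 3 lower in CAFs than in TAMs, where 37.3% of all genes were higher and 30.8% lower. The counts without those 2 libraries were 5 higher and 4 lower, where 66.2% of all genes were called. Socs1, a second feedback inhibitor of JAKs, averaged 17.8 ± 4.26 normalised CPM in endothelial cells, 151 ± 78.6 in CAF1, 168 ± 69.9 in CAF2, 6.31 ± 2.43 in CD206hi, 23.01 ± 15.1 in CD206pos and 12.01 ± 6.34 in CD206neg. It was higher in CAFs than in TAMs (3.74 ± 0.28; edgeR adjusted p = 4.73e-13) and lower in endothelial cells than in CAF1 (-3.08 ± 0.44; adjusted p = 1.81e-06). Ptpn6, the phosphatase SHP-1 of blood cells, was lower in CAFs than in TAMs (-7.35 ± 0.50; edgeR adjusted p = 7.64e-14). Both proteases that shed cytokine receptors were lower in CAFs than in TAMs, Adam17 at -1.37 ± 0.15 and Adam10 at -1.21 ± 0.17 on the log2 scale (edgeR adjusted p = 2.81e-09 and 2.61e-07).

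Genes listed as known STAT3 targets did not move one way between lineages. Of 12 such genes, 3 were higher and 8 lower in CAFs than in TAMs by the edgeR test, where 37.3% of all genes were higher and 30.8% lower, with a median log2 fold change of -0.68 beside 0.10 over all genes. Timp1, an inhibitor of matrix proteases, averaged 41.7 ± 9.84 normalised CPM in endothelial cells, 1374 ± 529 in CAF1, 873 ± 287 in CAF2, 41.1 ± 31.6 in CD206hi, 115 ± 68.3 in CD206pos and 4.27 ± 3.50 in CD206neg. It was higher in CAFs than in TAMs (5.34 ± 0.39; edgeR adjusted p = 4.4e-13), and Bcl2l1, which encodes the anti-apoptotic protein Bcl-xL, was lower (-2.14 ± 0.16; adjusted p = 7.28e-13). In CD206pos against CD206neg, 4 of the 12 were higher and 1 lower, where 8.85% of all genes were higher and 5.85% lower, with Timp1 at 4.80 ± 0.76 (edgeR adjusted p = 0.000398) and the transcription factor Cebpd at 1.78 ± 0.44 (0.0118). Bcl2l1 was the lower one (-1.17 ± 0.25; edgeR adjusted p = 0.00413). With the block 5 were higher and 1 lower, where 13.4% of all genes were higher and 25.3% were called. Without the CD206neg libraries of tumours 6 and 8, 3 were higher and 1 lower, where 8.11% of all genes were called.

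Acute phase genes, classical IL-6 responses in liver, were counted as 6 genes. In CD206hi against CD206neg 4 were higher and 0 lower by the edgeR test, where 6.14% of all genes were higher and 3.90% lower, with a median log2 fold change of 2.61 beside 0.02 over all genes. Without the CD206neg libraries of tumours 6 and 8, 3 were higher and 0 lower, where 4.75% of all genes were called. In CD206pos against CD206neg 3 were higher and 0 lower, where 8.85% of all genes were higher, with a median of 3.09 beside 0.02. The counts without those 2 libraries were again 3 and 0, where 8.11% of all genes were called. With the block 5 of the 6 were higher in CD206pos than in CD206neg, Hp (edgeR adjusted p = 0.00268) and Cp (0.00111) added, where 13.4% of all genes were higher and 25.3% were called. Lrg1, a secreted glycoprotein, averaged 971 ± 434 normalised CPM in endothelial cells, 41.9 ± 26.5 in CAF1, 9.95 ± 11.4 in CAF2, 264 ± 196 in CD206hi, 280.1 ± 140.0 in CD206pos and 15.05 ± 15.2 in CD206neg. It was higher in endothelial cells than in CAF1 (4.53 ± 0.85; edgeR adjusted p = 9.61e-05) and in CD206hi than in CD206neg (4.17 ± 0.84; adjusted p = 0.00308). Saa3, a serum amyloid A protein, was higher in CD206pos than in CD206neg (4.66 ± 0.61; edgeR adjusted p = 8.71e-05) and lower in endothelial cells than in CAF1 (-4.86 ± 0.81; adjusted p = 1.76e-05). Lcn2, an iron-carrier-binding protein also made by mammary epithelium, was higher in CAF1 than in CAF2 (3.88 ± 0.95; edgeR adjusted p = 0.0121), and the luminal epithelial sum was 910.1 in CAF1 and 119 in CAF2, with its part in the Lcn2 value not tested.

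As a description, the genes outside the lists whose log2 levels tracked each member best over the 30 libraries were found among 9840 genes by Pearson's r. These libraries share 5 tumours and 6 cell types, so r also carries the differences between populations. Il6 was tracked by Il1r1, the signalling receptor of interleukin-1 (r = 0.961), and Tmem263 (0.953). Lif was tracked by Nrg1 (0.844) and Mcoln2 (0.813), and Osm by Ms4a4a (0.997) and Ms4a6b (0.996). Il11 was tracked by Vasn (0.875) and Plxna1 (0.862). Il6st was tracked by Nedd4 (0.963) and Plpp3 (0.959), Il6ra by P2rx4 (0.960) and Daglb (0.958), Lifr by the scavenger receptor Cd163 (0.957) and Timd4 (0.947), and Osmr by Plat, which encodes tissue plasminogen activator (0.979), and Tmem98 (0.975). Stat3 and Socs3 had weaker companions, Pnrc1 (0.891) and Tubb6 (0.843) for Stat3, and Klf6 (0.785) and Tapbp (0.743) for Socs3.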

How the data were processed

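RNA of 30 sorted libraries was measured by RNA-seq (SMARTseq v4 and Ovation Ultralow V2, HiSeq 2500, per the labels). The deposited matrix holds whole-number counts per gene, made by the authors, whose tools are Trimmomatic 0.36, HISAT2 2.0.4, SAMtools 1.3.1, DESeq2 1.26 and build mm10, per the submitters' processing notes. How reads were counted (tool, annotation, strand) is not given in the sources used here. A deposited signal, normalised by the authors, equals those counts after division by a library's size factor, which a check over all genes bore out (largest relative spread 1.27e-09). The matrix holds 14118 genes, 14104 of them with a symbol, each with at least 72 counts in all.

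Libraries were grouped by their labels. edgeR 4.0.16 in R 4.3.3 supplied the low-count filter (filterByExpr), TMM scaling and the quasi-likelihood F test, without a block, and a gene was called at a Benjamini-Hochberg adjusted p below 0.05 across the whole table. CAFs were fitted on 10 libraries (12149 genes), TAMs on 15 (11052) and lineages on all 30 (13610), with CAF and TAM as means on the log2 scale. SE is the log2 fold change divided by the square root of F. A gene or list is called higher or lower for the first-named population.

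Each mouse gave 1 library per population, so tumour number pairs libraries. Correlations of deviations from the group means within a tumour spanned 0.0205 to 0.381 for CAFs, 0.111 to 0.648 for TAMs and 0.0213 to 0.574 over all 30 libraries. Values with tumour as a replicate block stand where they change a call. 

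Alternatives were the block, RLE factors, DESeq2 1.42.0, a filter of at least 50 counts in 5 libraries or no filter, limma 3.58.1 on log2 of the authors' values plus 1, another set of libraries, each library or tumour left out, and no CD206neg libraries of tumours 6 and 8. Library totals in place of TMM, and the pathway lists without those 2 libraries, were chosen after seeing the data. The members and lists were chosen with earlier results of these data known. Named are all members, up to 2 genes per list, direction and comparison (largest fold changes among genes called at a mean of at least 10 CPM, same direction in 5 of 5 tumours), and the 2 genes most like each member. The text gives a selection of these, and some listed genes are not reported here. Of the T cell markers 0 of 4 are in the matrix, and that list was not used. Exon lengths are unions over GENCODE M21 transcripts, and promoter sequences come from the RefSeq table for GRCm38.p6.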

Additional observations from a re-analysis of the deposited data

Results flagged for a closer look

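Of 60 groups of 5 libraries (10 members in 6 populations), 5 held a library set apart from the other 4 by Dixon's criterion on the gap to the nearest library. Chance sets about 1 in 20 groups apart where values are normally distributed. These values were normalised CPM without a log, so that rate may not hold, and all 5 libraries were the highest of their group. Osm in the CAF1 library of tumour 6 was at 3.48 normalised CPM, with the other CAF1 libraries at 0 to 0.543. Osm in the CD206hi library of tumour 11 was at 3118, with the others at 1293 to 1409. As CPM of the library total it was at 1815, with the others at 1100 to 1499, and the criterion was not applied to those values. Socs3 in tumour 11 was at 3388 in CAF1 (others 675 to 1208), at 2007 in CAF2 (others 1081 to 1286) and at 3820 in CD206hi (others 564 to 1284). The same 3 libraries of tumour 11 had the highest immediate early sums of their populations, at 64848 in CAF1, 42548 in CAF2 and 60478 in CD206hi, and the part of these genes was not tested. Tumour 11 had TMM factors of 0.691 in CAF1, 1.03 in CAF2 and 0.582 in CD206hi. Its Socs3 and Osm levels relative to the other libraries therefore also move with the scaling.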

How the results depend on the processing

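Over the 8 comparisons and their alternatives other than left-out libraries, 592 member values kept their direction and side of the threshold, 10 lost and 23 gained a call and 15 changed sign. The number of members called moved by over 1.5 times in 4 of these: endothelial against CAF2 gave 5 with the replicate block and 5 with another set of libraries, endothelial against CAF1 gave 3 with library totals, and CD206pos against CD206neg gave 3 without the CD206neg libraries of tumours 6 and 8. For endothelial cells against CAF2, the share of all genes called with another set of libraries is not reported here. Smaller moves with the block are given with the results. CD206hi against CD206neg gave 2 without those 2 libraries, where 4.75% of genes were called. Tumour as a replicate block changed no call of a member beyond those given with the results. Over the 41 genes of the pathway lists tested among TAMs, the block gave 0 higher and 5 lower in CD206hi against CD206pos. Without it both counts were 0. It gave 11 and 6 in CD206hi against CD206neg, with 9 and 3 without it, where the share of all genes called rose from 10.04% to 16.2%. In CD206pos against CD206neg it gave 16 and 6, with 12 and 1 without it, where that share rose from 14.7% to 25.3%. For CD206hi against CD206pos the share was 0.190% without the block, and the share with it is not reported here. With the block, sign changes were at log2 -0.0857 for Socs3 in CAF1 against CAF2, -0.00393 for Il6ra and 0.117 for Osmr in CD206hi against CD206pos, and -0.0934 for Socs3 in CD206pos against CD206neg. With limma on the authors' values they were at -0.0712 for Socs3 in CAF1 against CAF2 and -0.01385 for Il6ra in CD206hi against CD206pos, and limma also ended the Osm call in endothelial cells against CAF1 (adjusted p = 0.0837). With library totals they were at -0.142 for Socs3 in CAF1 against CAF2, -0.0279 for Il6ra in CD206hi against CD206pos, 0.273 for Il6st and 0.255 for Stat3 in endothelial cells against CAF1, 0.217 for Osm in endothelial cells against CAF2, 0.173 for Lif and 0.144 for Stat3 in CAFs against TAMs, and 0.348 for Il11 and 0.524 for Stat3 in endothelial cells against TAMs. The fit of all 30 libraries ended the Osm calls in CD206hi and CD206pos against CD206neg (adjusted p = 0.119 and 0.111) and gave one for Il6st in CD206hi against CD206neg (0.0496), and fits of only the groups compared gave calls for Osmr in endothelial cells against CAF1 (0.00105) and CAF2 (0.0119).

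With 1 library or tumour left out, the members called numbered 1 to 3 in CAF1 against CAF2, 0 to 0 in CD206hi against CD206pos, 2 to 3 and 2 to 5 in CD206hi and CD206pos against CD206neg, 3 to 7 and 3 to 5 in endothelial cells against CAF1 and CAF2, 7 to 7 in CAFs against TAMs and 6 to 8 in endothelial cells against TAMs. The shares of all genes called in these runs are not reported here, so these ranges cannot be set apart from changes in calls over all genes. Log2 fold changes that then crossed 0 ranged, in CAF1 against CAF2, from -0.0171 to 0.342 for Il6, -0.784 to 0.0546 for Il11 and -0.443 to 0.307 for Socs3. In CD206hi against CD206pos they ranged from -0.466 to 0.0992 for Lif, -0.209 to 0.307 for Osm, -0.133 to 0.129 for Il6ra, -0.272 to 0.131 for Lifr, -0.919 to 1.14 for Osmr and -0.226 to 0.713 for Socs3. Against CD206neg they ranged from -0.284 to 0.67 for Il6 and -0.211 to 1.00 for Socs3 in CD206hi, and from -0.28 to 0.545 for Socs3 in CD206pos. In endothelial cells against CAF2 they ranged from -0.996 to 0.417 for Osm and -0.0071 to 0.215 for Stat3, and in CAFs against TAMs from -0.332 to 0.0462 for Lif and -0.0942 to 0.421 for Socs3. Calls gained with 1 library or tumour left out were Il6st in CD206hi against CD206neg without the CD206neg library of tumour 5 (adjusted p = 0.0477), Il6st in endothelial cells against CAF2 without the endothelial library of tumour 5 (0.045), Osmr in endothelial cells against CAF1 without tumour 5 (0.034), Socs3 in endothelial cells against CAF1 without tumour 5 (0.0222) or its CAF1 (0.0354) or endothelial library (0.0431), Socs3 against CAF2 without tumour 5 (0.0392) or its endothelial library (0.0496), and Socs3 against TAMs in 10 runs (0.0344 to 0.0486). The cause of these changes was not tested. Depth limits Osm in stroma, Osmr in TAMs and Il11 in TAMs and endothelial cells, where many libraries hold few counts.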
